A study of Drosophila melanogaster with 6 samples.

Results

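Depletion of the negative elongation factor NELF from Drosophila S2 cells was compared with a mock treatment on 4 of the 6 arrays of the study, 2 NELF-depleted and 2 mock. The NELF-depleted cells were exposed for 96 hours to double-stranded RNA (dsRNA) that targets 2 subunits of the complex, NELF-B and NELF-E. The mock cells received dsRNA against β-galactosidase, as a control without a NELF target, for the same 96 hours, and the remaining 2 arrays hold cells that were left untreated. S2 cells, here the stock of the Drosophila Genomics Resource Center, are 1 embryo-derived line that resembles macrophage-like blood cells, so the comparison describes a single cultured line. Total RNA was read on Affymetrix Drosophila Genome 2.0 arrays, which hold 18952 probe sets. All 18769 probe sets that are not controls were compared, 13647 with exactly 1 listed gene, 402 with several and 4720 with none. Values are normalized log2 intensities, on which a difference of 1 is a 2-fold change, and every difference is NELF-depleted minus mock unless another is named.

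NELF is a complex of the subunits NELF-A, NELF-B, NELF-D (encoded by TH1) and NELF-E that binds RNA polymerase II shortly after transcription starts. Together with DSIF it holds the polymerase in a paused state until the kinase P-TEFb releases it. In flies the heat shock genes are the classic paused genes, and in S2 cells many paused genes act in immunity, development and signalling. The arrays measure steady-state mRNA, and neither NELF protein nor pausing was measured.

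Before any change is read, the arrays and their labels were checked. Deposited intensities had medians of 13.9 and 14.2 in untreated, 14 and 12.1 in mock and 11.9 and 11.7 in NELF-depleted cells. The background level was set at 3.88 on the normalized log2 scale, a value that 95% of readings from 17 tag control probe sets stay under, and 8344 probe sets had a mean above it. Above background, the 2 arrays of a group differed by a median of 0.149, 0.173 and 0.149 in untreated, mock and NELF-depleted cells, and below it by 0.789, 0.844 and 0.861. In no group did the 2 arrays share an identical value for any probe set. Of 14 genes that mark hemocyte-like cells, 11 lay above background on all 6 arrays, and 2, drpr and eater, were called lower. Over all 11983 genes 1.07% were called lower and 0.25% higher. Hml, Pxn and ush lay above all 4 control arrays on both NELF-depleted arrays, with differences of 1.23, 0.52 and 0.42 that did not pass the test. NimC1 lay below all 4, with a difference of -2.10 that did not pass either, and was below background on every array. Of all probe sets 10.7% lay above and 9.93% below all 4 control arrays. Of 11 measured markers of muscle, neurons, gut, germline and fat body, 2 to 4 lay above background on any array, with summed deposited intensities of 147.9 and 147.5 on the NELF-depleted arrays against 115 to 221 on the 4 others. With 2 arrays a group their number limits the precision of every value, and the labels do not say whether the 2 came from different cultures. All p-values thus reflect the spread among these 6 arrays alone, which may be technical.

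Both targeted subunits had less mRNA on the NELF-depleted arrays than on any of the 4 control arrays. The probe set of NELF-B read 8.10 and 8.0 in untreated, 8.04 and 7.93 in mock and 6.24 and 5.86 in NELF-depleted cells. Its difference of -1.94 (SE 0.166) left 26.1% of the mock level (limma, adjusted p = 0.000174). The probe set of Nelf-E read 8.15 and 8.39, 8.16 and 8.27 and 5.90 and 5.74 in the same order, a difference of -2.40 (SE 0.153) that left 19.0% (limma, adjusted p = 2.69e-05). TH1, the gene of a subunit that was not targeted, read 9.21 and 8.86 on the mock and 9.47 and 9.39 on the NELF-depleted arrays, so that it differed by 0.40 (SE 0.128) without passing the threshold (adjusted p = 0.284). Nelf-A had no probe set of its own.

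Among the probe sets that passed the test, falls outnumbered rises, while over all 18769 probe sets 48.2% of the differences were negative and their median was 0.016. Limma called 192 probe sets at an adjusted p under 0.05, which is 1.02% of those tested. Of them 145 were lower (0.773% of all) and 47 were higher (0.25%). The lower calls belonged to 130 distinct single genes and the higher calls to 33, and 49 and 8 of these genes carry no name beyond a CG number. The falls were also larger, with a median of -1.09 and a range from -3.16 to -0.47, and 85 of the 145 exceeded 2-fold. The rises had a median of 0.80 and a range from 0.45 to 2.41, and 17 of the 47 exceeded 2-fold. All 145 lower probe sets lay below all 4 control arrays and all 47 higher ones lay above them. Over all probe sets 9.93% lay below and 10.7% above all 4 control arrays. The calls were selected by their difference from mock, so their counts cannot be compared with these shares.

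These calls depend on how the spread is estimated and on how the arrays are scaled. The test used a prior variance that follows intensity, and with a single prior variance for all probe sets limma called 0, with a smallest adjusted p of 0.193. At an unadjusted p under 0.05 the 2 forms gave 1852 and 1638 probe sets, against 938 expected by chance alone, with 989 and 915 of them lower. With the intensities as deposited 69 probe sets were called, 87.0% of them lower, against 75.5% in the quantile normalized values. With arrays scaled on 9 hybridization control probe sets, 3095 were called, 99.2% of them lower, and the median of all probe sets shifted from 0.016 to -0.42. All differences given here are therefore relative to the bulk of the probe sets. A fit with the replicate number as a block called 382, 263 lower and 119 higher. Without mock replicate 1 or 2 the count was 89 or 85, and without NELF-depleted replicate 1 or 2 it was 78 or 67. Beside the counts, 84 called probe sets were chosen by a set rule for separate description, and 26 of them kept the call whichever of the 6 arrays was left out, while 12 lost it whichever was left out. The 12 belong to Spn77Ba, CG4250, CG15695, Oat, Kal1, ckd, tef, CG1607, Drs, Pvr, Hsp68 and E(spl)m3-HLH. None of the 84 changed sign in the 18 other settings of scaling, offset, filter, prior and arrays. The calls nearest the threshold were Oat (adjusted p = 0.0485), Shmt (0.0472) and Pvr (0.0462), and the nearest probe sets outside it were AOX3 and CG9338 (both 0.0525) and CG10962 (0.0537).

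All calls lay on probe sets above background in mock cells. Probe sets were placed in 6 classes by their mean on the mock arrays, 1 class of 10129 probe sets below background and 5 classes of 1728 each above it. Below background 0 probe sets were called, but the median SE there was 0.864, against 0.103 in the brightest class. Even fitted changes over 2-fold did not pass there, so the count does not show that these genes stayed unchanged. The dimmest class above background, with mock levels from 3.88 to 5.57, had 4 calls (0.231%), 1 lower and 3 higher. The classes above it had 37, 51, 55 and 45 calls, which are 2.14%, 2.95%, 3.18% and 2.60% of their members. In each of these 4 classes the lower calls outnumbered the higher ones, with 27 against 10, 38 against 13, 42 against 13 and 37 against 8. The mock level of the lower probe sets had a median of 8.92 and ran from 5.41 to 13.1, and that of the higher ones had a median of 8.15 and ran from 4.29 to 11.6. The brightest called probe set belonged to ImpL2, a secreted insulin-binding protein gene picked out here after its values were seen, which read 13.12 and 13.05 on the mock and 12.56 and 12.42 on the NELF-depleted arrays.

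**Figure D1:**
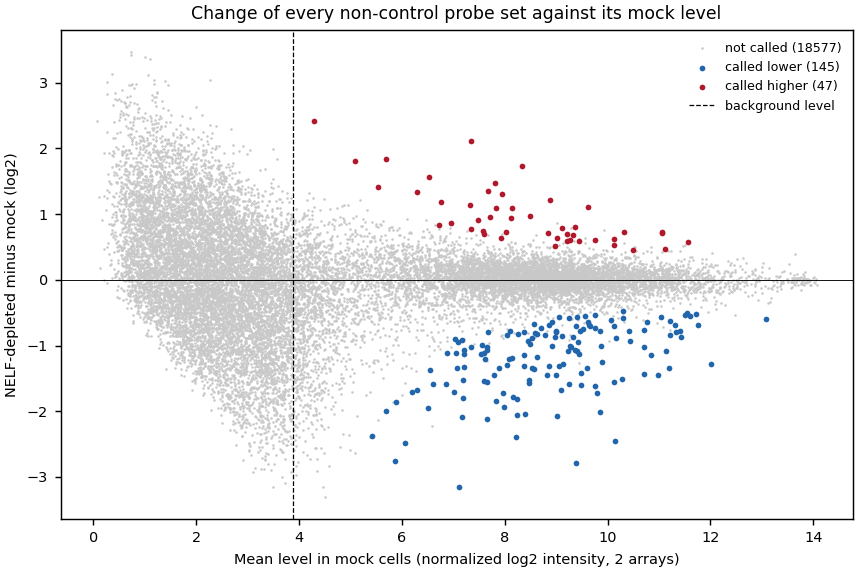
Each point is 1 of the 18769 probe sets, placed by its mean log2 level on the 2 mock arrays (x axis) and its log2 difference, NELF-depleted minus mock (y axis), with called probe sets in colour and the background level of 3.88 dashed. The 145 lower (blue) and 47 higher (red) calls all lie to the right of the background line, and the uncalled points (grey) spread most to its left.

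The mock arrays enter both the level and the difference, so the levels were also taken from the untreated arrays, which do not enter the difference. By untreated level the calls in the classes from dimmest to brightest above background were 4, 38, 51, 50 and 49, again with 0 below background. The median difference in the dimmest class above background was -0.22 by mock level and 0.028 by untreated level. In the other 4 classes medians lay between -0.0042 and 0.037 by mock level and between 0.0024 and 0.038 by untreated level. Over the 8344 probe sets above background, the rank correlation (Spearman) of the difference with the level was -0.095 for the mock level and -0.067 for the untreated level. These describe probe sets that share the same 6 arrays and are not independent points.

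**Figure D2:**
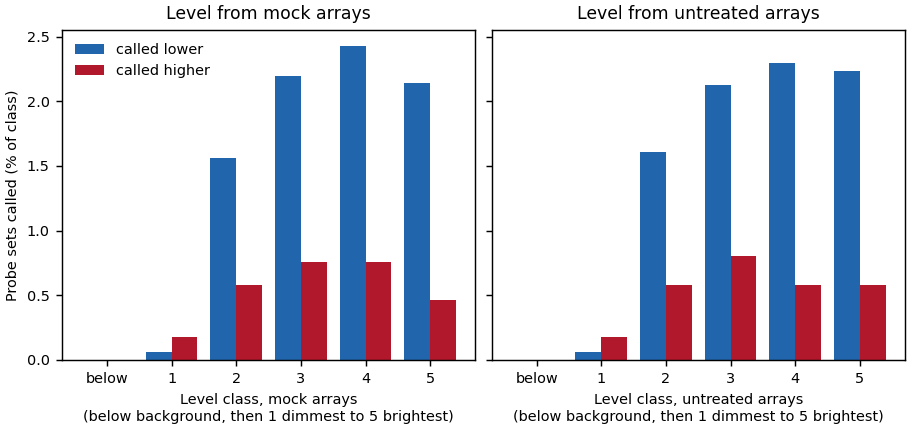
Bars give the percent of probe sets called lower (blue) and higher (red) in each class of level, set by the mock arrays (left) or the untreated arrays (right). Both panels have 0 calls below background and more lower than higher calls in classes 2 to 5, while class 1 has 1 lower and 3 higher.

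The size of the differences relative to the replicate spread followed the level as well. The median standard error fell from 0.864 below background to 0.568, 0.203, 0.136, 0.114 and 0.103 in the classes above it. Below background the root mean square difference was 1.01 times the one expected from the spread between replicate arrays. In the classes above it this ratio was 1.45, 1.74, 1.90, 1.86 and 1.82. Below background 1383 probe sets had a fitted fall over 2-fold and 1664 a fitted rise over 2-fold, and 0 of them were called. Among these, RhoGAP100F read 0.81 and 0.67 on the mock and 4.52 and 3.87 on the NELF-depleted arrays, and CG17207 read 0.92 and 1.08 and 4.36 and 4.43. The untreated arrays read 3.64 and 2.63 for RhoGAP100F and 4.16 and 4.0 for CG17207, so the mock arrays were the low ones. CG32201 read 3.17 and 3.83 on the mock arrays against 1.13 and 0.75 untreated and 0.49 and 0.22 NELF-depleted, and here the mock arrays were the high ones. In the dimmest class above background the fatty acid activating enzyme gene Acsf2 read 5.47 and 5.31 on the mock and 3.51 and 2.47 on the NELF-depleted arrays, and missed the threshold (adjusted p = 0.0635).

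Beside both targets, the 25 largest falls of genes with a probe set of their own included QC, Pgant2, the lysosomal genes Sgsh and LManII, the transporter gene path and the pyruvate carboxylase gene PCB. QC, which encodes glutaminyl cyclase and closes the N-terminal glutamine of secreted peptides into a ring, had the smallest p of all probe sets. It read 10.12 and 10.0 on the untreated, 10.13 and 10.15 on the mock and 7.68 and 7.69 on the NELF-depleted arrays, and fell by 2.45 (SE 0.0986, adjusted p = 9.66e-07). The 4 control arrays lay close together and far above both NELF-depleted arrays. Pgant2, which adds the first sugar of mucin-type O-glycans, read 8.81 and 8.0 on the mock and 6.55 and 6.17 on the NELF-depleted arrays (difference -2.04, SE 0.254, adjusted p = 0.00211). Its other probe set above background differed by -1.71 and was not called. Nepl21, a member of the neprilysin-like family of metallopeptidases, read 6.10 and 6.03 on the mock and 4.13 and 3.03 on the NELF-depleted arrays, 1 of them below background (adjusted p = 0.0177). The serpin gene Spn77Ba lay below background on both NELF-depleted arrays and was at least 2.90-fold lower (adjusted p = 0.0411). Such a bound sets the mean of the brighter group against the background level. Kal1, which encodes a secreted matrix protein related to human anosmin, read 6.48 and 6.10 on the mock and 4.78 and 4.45 on the NELF-depleted arrays (adjusted p = 0.0223).

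Of the lysosomal hydrolases, 6 of 26 measured genes fell and 0 rose, beside 1.07% lower and 0.25% higher among all 11983 genes read by 1 representative probe set each. This list and the others were chosen with earlier results of these data known, so their counts are a description and not a test. Of these 26 genes 18 lay above background, and among all genes above background 1.96% were lower and 0.459% higher. Their median difference was -0.18, against 0.012 for all genes. Sgsh, which encodes a sulfatase that breaks down heparan sulfate, read 9.85 and 9.86 on the mock and 7.93 and 7.76 on the NELF-depleted arrays and kept 24.9% of its mock level (adjusted p = 7.45e-06). Naglu and Ids, whose enzymes act on the same polysaccharide, differed by -1.13 (SE 0.179, adjusted p = 0.0106) and -0.93 (SE 0.140, adjusted p = 0.00735). LManII, a lysosomal α-mannosidase gene, read 7.43 and 8.24 on the mock and 5.65 and 6.34 on the NELF-depleted arrays (difference -1.84, SE 0.299, adjusted p = 0.0123), with more spread between the mock arrays than the other hydrolases. The protease gene CtsB (-0.58, SE 0.0979) and the hexosaminidase gene Hexo2 (-0.52, SE 0.0944) fell less. The brightest member, the cathepsin gene CtsL1, differed by 0.05 and the cathepsin gene cathD by -0.13, and neither passed the test. The proton pump that acidifies lysosomes, the V-ATPase, had 0 of 16 measured genes called, and autophagy genes had 0 of 15.

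Amino acid transporters had 3 of 14 measured genes lower and 0 higher, with 7 of the 14 above background, beside the 1.07% lower and 0.25% higher of all genes. Their median was -0.064, and 7 of the 14 differences were positive. Path, a transporter found at lysosomes, read 7.14 and 7.76 on the untreated, 7.39 and 6.97 on the mock and 5.57 and 5.19 on the NELF-depleted arrays (difference -1.80, SE 0.252, adjusted p = 0.00449). Mnd, a plasma membrane carrier of the light chain family, read 9.87 and 9.92 on the mock and 8.67 and 8.62 on the NELF-depleted arrays and fell by 1.25 (SE 0.0962, adjusted p = 9.56e-05). CG1607 differed by -0.91 (SE 0.173, adjusted p = 0.0310). The brightest transporter of the list, JhI-21, differed by -0.17 and did not pass (adjusted p = 0.660).

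PCB, Sfxn1-3, Oat, Esyt2 and Ugt35A1 were also among the largest falls. PCB encodes pyruvate carboxylase, which makes oxaloacetate from pyruvate, and read 8.24 and 8.07 on the mock and 6.34 and 6.41 on the NELF-depleted arrays (difference -1.79, SE 0.140, adjusted p = 0.000105). Its other probe set above background differed by -1.32 and was not called. PCB was the 1 of 15 measured genes of the tricarboxylic acid cycle list called, where 1.07% of all genes fell and 0.25% rose. Its spelling on that list was corrected after list results had been seen, so the count is a description and not a test. Sfxn1-3, a sideroflexin whose human relative carries serine into mitochondria, read 7.14 and 7.20 and 5.43 and 4.75 (difference -2.08, SE 0.253, adjusted p = 0.00183). Oat, the gene of ornithine aminotransferase, read 5.81 and 6.58 and 4.79 and 4.19. Agpat2, which makes phosphatidic acid for phospholipids, read 9.72 and 9.46 and 8.21 and 8.28 (difference -1.35, SE 0.139, adjusted p = 0.000727) and was the 1 of 27 measured lipid synthesis genes called. Esyt2, an extended synaptotagmin that tethers the endoplasmic reticulum to the plasma membrane, read 7.77 and 7.54 on the mock and 5.51 and 5.56 on the NELF-depleted arrays (difference -2.12, SE 0.171, adjusted p = 0.000134). Ugt35A1, a UDP-glycosyltransferase gene, read 6.67 and 7.35 and 5.17 and 5.44 (difference -1.70, adjusted p = 0.00616). The remaining falls of this set were regucalcin and the CG-numbered genes CG34232, CG4250, CG32813, CG15695, CG34417, CG3770, CG1998, CG42675 and CG1572, with differences from -2.08 for CG34232 to -1.61 for CG1572. CG4250 lay below background on both NELF-depleted arrays and was at least 3.54-fold lower, and CG15695 lay below it on 1.

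The 20 largest rises were led by bbg, CG9008, Trpm and Ip6k and ranged from 0.70 to 2.41. Their calls depended more on scaling than those of the falls. With the intensities as deposited 1 of the 20 rises stayed called, against 20 of the 25 largest falls. Scaling on array medians kept 8 rises and 20 falls, and scaling on hybridization controls 9 rises and 25 falls. Bbg encodes a PDZ-domain protein of septate junctions and was close to background in controls, at 3.94 and 4.52 in untreated and 4.16 and 4.42 in mock cells. It read 6.75 and 6.64 on the NELF-depleted arrays, 5.31 times its mock level (difference 2.41, SE 0.389, adjusted p = 0.0119). Trpm, a cation channel gene, read 5.63 and 5.43 and 6.98 and 6.91 (difference 1.42, SE 0.243, adjusted p = 0.0177). Ip6k, the kinase that makes pyrophosphate forms of inositol phosphate, read 7.59 and 7.77 and 8.96 and 9.10 (difference 1.35, SE 0.161, adjusted p = 0.00178). These probe sets of all 3 genes lay above all 4 control arrays on both NELF-depleted arrays, as 10.7% of all probe sets did. The rule for this set already required that they not overlap the mock arrays. Trpm had 4 probe sets above background, with differences from 0.76 to 1.42, and only 1 was called.

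Of 20 measured genes of nucleotide metabolism, 2 rose and 0 fell, where 0.25% of all genes rose and 1.07% fell, and the median of the 20 was -0.013. AMPdeam, which encodes AMP deaminase, read 7.27 and 7.38 on the mock and 8.44 and 8.47 on the NELF-depleted arrays (difference 1.13, SE 0.132, adjusted p = 0.00148). The pyrimidine breakdown gene su(r) differed by 0.60 (SE 0.0930, adjusted p = 0.00909). Further rises included Gbs-70E, a glycogen-binding subunit of protein phosphatase 1, at 0.86, and Asap, a GTPase-activating protein for Arf, at 0.80. Spn88Ea, a secreted serpin gene, rose by 0.72 and Oda, the gene of ornithine decarboxylase antizyme, by 0.70. Tef, needed for pairing of autosomes in male meiosis, rose by 0.70. CG9008 (1.80), CG34328 (1.34), CG2247 (1.09), CG3376 (0.78) and the long non-coding RNA lncRNA:CR42862 (0.73) completed this set with oaf, ckd and Hsp26, which are described with their other probe sets or relatives. Ant2, the mitochondrial adenine nucleotide carrier gene, rose by 0.77 and CG15211 by 0.70. The annotation places these last 2 as overlapping neighbours, so their probe sets may not be independent readings. The dimmer of the probe sets of dre4, a subunit of the histone chaperone FACT, rose by 0.72 (SE 0.119, adjusted p = 0.0135), while the brighter differed by 0.20 and did not pass.

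**Figure D3:**
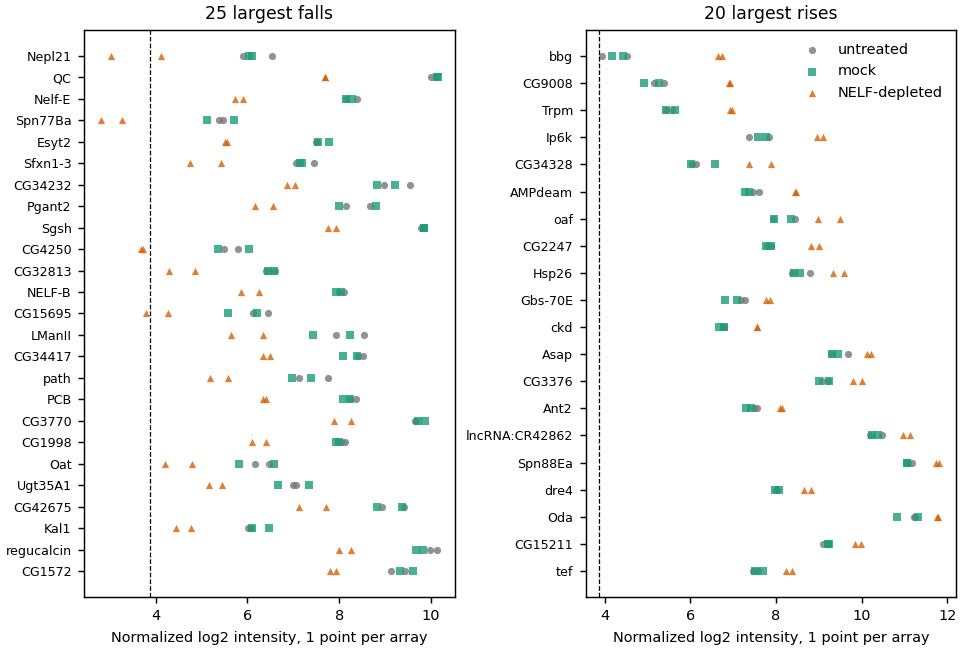
Normalized log2 intensity (x axis) of the 25 largest falls (left) and the 20 largest rises (right) on each of the 6 arrays, with untreated as circles, mock as squares, NELF-depleted as triangles and the background level of 3.88 dashed. In every row both triangles lie outside the range of the 4 control arrays, and both triangles of Spn77Ba and CG4250 lie below background. Rows were chosen from called probe sets that do not overlap the mock arrays, so this separation is largely set by the choice. Over all probe sets 9.93% lay below and 10.7% above all 4 control arrays.

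The heat shock genes were read mostly by probe sets with several listed genes, and those for the Hsp70 family were higher. The copies of Hsp70 are near-identical, so a probe set cannot say which copy gave the signal. The probe set listed for Hsp70Aa and Hsp70Ab read 8.25 and 8.83 on the untreated, 7.88 and 8.78 on the mock and 9.67 and 10.45 on the NELF-depleted arrays. It rose by 1.73 (SE 0.299, adjusted p = 0.0189), and its mock arrays lay far apart from each other. The probe set listed for Hsp70Bc and Hsp70Bb read 5.99 and 6.26, 5.47 and 5.92 and 7.54 and 7.54 in the same order and rose by 1.84 (SE 0.224, adjusted p = 0.00183). The probe set listed for Hsp70Ba, Hsp70Bb, Hsp70Bbb and Hsp70Bc read 8.02 and 7.96, 7.45 and 8.16 and 9.28 and 9.27 and rose by 1.47 (SE 0.189, adjusted p = 0.00245). For all 3 probe sets both NELF-depleted arrays lay above all 4 control arrays, as 10.7% of all probe sets did, but these 3 were selected by a call. The last 2 both list Hsp70Bb and Hsp70Bc, so they may not be independent readings. Mock minus untreated, the 3 probe sets differed by -0.21, -0.43 and -0.19. Another probe set for the same 4 Hsp70B copies, and one for CG31343 with Hsp70Bb and Hsp70Bc, lay below background on all mock and NELF-depleted arrays and were not called.

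Of the 13 heat shock and chaperone genes with a probe set of their own, Hsp26 and Hsp68 rose and 0 fell, against 0.25% higher and 1.07% lower over all genes. Of the 13 differences 11 were positive, with a median of 0.19. Hsp26, a small heat shock protein gene, read 8.55 and 8.43 on the mock and 9.33 and 9.58 on the NELF-depleted arrays (difference 0.96, SE 0.148, adjusted p = 0.00860). Hsp68, a close relative of Hsp70, read 7.92 and 7.95 and 8.50 and 8.64 (difference 0.63, SE 0.119, adjusted p = 0.0303). The brighter probe set for Hsp22 and CG4456 differed by 0.53 (SE 0.129) without passing (adjusted p = 0.113), and Hsp27 differed by 0.05. The dimmer probe set for Hsp22 and CG4456 went the other way, reading 3.97 and 4.45 on the mock and 1.86 and 3.60 on the NELF-depleted arrays, with both of the latter below background, and did not pass either (adjusted p = 0.531). The heat shock factor gene Hsf differed by 0.19 and the constitutive chaperone gene Hsc70-4 by 0.07, and neither passed.

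Of the 192 calls 170 came from probe sets with 1 gene, 6 from those with several genes and 16 from those with none. Of the 402 with several genes 6 were called (1.49%), 3 lower and 3 higher, the higher ones being the 3 Hsp70 probe sets. The lower ones were a probe set for CG10962 and the long non-coding RNA lncRNA:CR43836, at -2.06 (SE 0.217, adjusted p = 0.000821), and a pair for CG31274 and MESK4, at -1.56 and -1.36. The single-gene probe set of CG10962 differed by -1.24 and just missed the threshold. Of the 4720 with no listed gene 16 were called (0.339%), 9 lower and 7 higher. Only 996 of these lay above background, and of those 1.61% were called, against 2.39% of the 7118 single-gene probe sets above background. The probe set 1628884_at, with no listed gene, read 9.46 and 9.46 on the untreated, 9.15 and 9.61 on the mock and 6.47 and 6.70 on the NELF-depleted arrays. Its difference of -2.79 (SE 0.153, adjusted p = 8.68e-06) was larger than that of QC. The probe set 1632298_s_at read 7.76 and 7.65, 7.22 and 7.47 and 9.47 and 9.44 in the same order and rose by 2.11 (SE 0.128, adjusted p = 2e-05). In probe set names the ending _s_at marks probes shared between transcripts of different genes, and 3.84% of such probe sets above background were called, against 1.86% of those ending in plain _at.

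Where a gene with a call was read by several probe sets, these mostly pointed the same way but often only 1 passed. There were 412 genes with 2 or more probe sets above background, and 24 of them had at least 1 call. All probe sets were called for 5 genes, some for the other 19, and 0 genes had calls in both directions. In 21 of the 24 all differences had the same sign, and 182 of all 412 genes had probe sets of opposite sign. The 24 were selected by a call and the 412 were not, so the 2 counts cannot be compared. The largest fall of any called probe set came from regucalcin, the relative of a mammalian calcium-binding protein. One of its probe sets read 7.07 and 7.16 on the mock and 4.52 and 3.39 on the NELF-depleted arrays (difference -3.16, SE 0.369, adjusted p = 0.00148). The other was brighter, at 9.67 and 9.84 and 8.27 and 8.0, and fell by 1.62 (SE 0.121, adjusted p = 8.43e-05). All 3 probe sets of oaf rose, by 1.09, 1.19 and 1.56, and both of luna, a Krüppel-like transcription factor gene, rose by 0.61 and 0.71. Both of CG14642 fell, by 1.53 and 1.29, and of CG34417 the brighter differed by -1.82 while the dimmer lay below background on both NELF-depleted arrays and was at least 3.98-fold lower.

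Other genes had probe sets that disagreed. For ckd the called probe set rose by 0.83 (SE 0.159) with 6.78 and 6.68 on the mock and 7.55 and 7.56 on the NELF-depleted arrays. Its other probe set, at a like level, read 6.88 and 6.82 and 6.74 and 6.35 and differed by -0.30 (SE 0.222). For br, the gene of the ecdysone-induced Broad transcription factors, the brightest of 5 probe sets fell by 0.97 (SE 0.130, adjusted p = 0.00313). The other 4, all much dimmer, differed by -1.23 to -0.12 and did not pass. AMPdeam had 1 called probe set of 3, and the others differed by 0.85 and 0.03. CG32425 had its brightest probe set at -0.87 (adjusted p = 0.00114), while the others differed by -0.24 and 0.19.

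**Figure D4:**
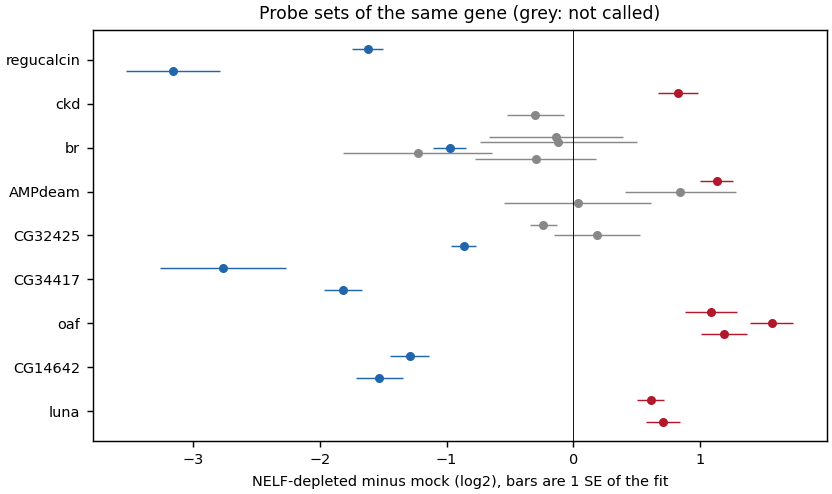
Log2 difference, NELF-depleted minus mock (x axis), of every probe set above background of 9 genes, with bars of 1 SE of the fit; blue is called lower, red called higher and grey not called. Regucalcin, CG34417, oaf, CG14642 and luna have all probe sets called in 1 direction, and ckd, br, AMPdeam and CG32425 have 1 called probe set each.

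Immune and blood cell genes had falls in 3 lists and a rise in 1, to be read beside the 1.07% lower and 0.25% higher over all genes. Of 24 measured components of the Toll and Imd pathways 3 fell and 0 rose, though 14 of the 24 differences were positive and their median was 0.0067. Spz encodes the ligand of Toll and read 11.60 and 11.65 on the untreated, 11.79 and 11.73 on the mock and 11.08 and 11.06 on the NELF-depleted arrays (difference -0.69, SE 0.0887, adjusted p = 0.00243). Grass, a protease gene upstream of spz, differed by -0.65 (SE 0.112, adjusted p = 0.0189), and GNBP3, which recognises fungal glucans, by -1.11 (SE 0.202, adjusted p = 0.0248). The receptor gene Tl differed by -0.67 and missed the threshold (adjusted p = 0.0821). Of 14 measured antimicrobial effectors, the peptide gene Drs fell, from 6.29 and 6.82 on the mock to 5.18 and 5.18 on the NELF-depleted arrays. The list as a whole had 11 of 14 differences negative and a median of -0.83 against mock and -0.70 against untreated cells. Its peptide genes AttD and DptB differed by -1.02 and -0.96 and missed the threshold (adjusted p = 0.0903 and 0.0712). Among 27 phagocytic receptor and hemocyte genes 2 fell and 1 rose, 14 of the 27 differences were positive, and the median was 0.018. The phagocytic receptor genes drpr and eater read 8.33 and 8.58 and 8.07 and 8.15 on the NELF-depleted arrays, against 9.34 and 9.31 and 9.13 and 8.83 on the mock arrays. Pvr, the receptor of PDGF- and VEGF-related ligands, rose by 0.58 (SE 0.118, adjusted p = 0.0462).

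Of 15 measured Notch and E(spl) genes 2 fell and 0 rose, beside 1.07% and 0.25% of all genes, while 9 of the 15 differences were positive and the median was 0.080. Numb, whose protein inhibits Notch, read 9.36 and 9.09 on the mock and 8.24 and 8.05 on the NELF-depleted arrays, and E(spl)m3-HLH, a Notch target, read 8.44 and 8.82 and 7.66 and 7.95. Of 25 measured early-response transcription factor genes br fell and luna rose, with 20 of the 25 differences positive and a median of 0.26. Strica, a caspase gene, was the 1 of 14 apoptosis genes called and fell by 0.75 (SE 0.105, adjusted p = 0.00440). Pgant2 was the 1 of 13 O-glycosylation genes called, Asap the 1 of 12 small GTPase regulators, and bbg the 1 of 24 septate, adhesion and actin genes. Of 25 serpins and secreted protease regulators Spn77Ba fell and Spn88Ea rose, and of 22 genes of phosphoinositides and membrane contacts Esyt2 fell and Ip6k rose.

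Other listed genes of transcription and translation had no calls by their brightest probe set, the dimmer one of dre4 being called higher as given above. Among 21 measured elongation and pausing factors 0 were called, with differences from -1.24 to 0.32 and a median of 0.052. Of all genes 1.07% were called lower and 0.25% higher, so 0 calls in this list or those below is near the general rate. The lowest difference was that of lilli, a dim gene of the super elongation complex. It read 4.80 and 3.87 on the mock and 1.95 and 4.23 on the NELF-depleted arrays, the latter far apart from each other. Another probe set of lilli above background differed by -0.25. The DSIF subunit genes Spt5 and spt4 differed by 0.09 and 0.04, the P-TEFb subunit genes Cdk9 and CycT by 0.23 and 0.05, and Trl, the gene of the GAGA factor, by -0.32. The 15 ribosomal protein genes on the list, with 0 calls, had differences whose median was 0.0077, and the 16 aminoacyl-tRNA synthetase genes, also with 0, had one of 0.048. Endoplasmic reticulum chaperones had 0 of 17 called, and markers of other cell types 0 of 11. Glycolysis and sugar uptake also had 0 of 12 called, but all 12 differences were negative, from -1.41 to -0.15, with a median of -0.37 against mock and -0.26 against untreated cells.

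**Figure D5:**
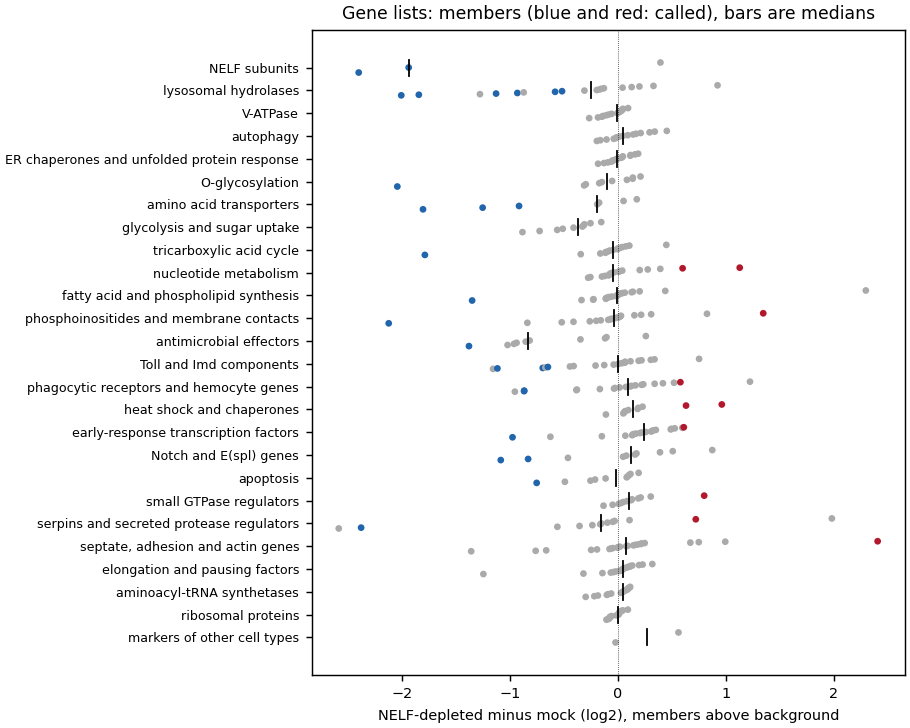
Log2 difference, NELF-depleted minus mock (x axis), of each list member above background, 1 point per gene, with called members in blue (lower) or red (higher) and black bars at the list medians. Lysosomal hydrolases hold 6 lower calls and amino acid transporters 3. V-ATPase, autophagy, elongation factor and ribosomal protein genes hold none, with medians close to 0. Of all genes above background 1.96% were called lower and 0.459% higher, so 0 calls in a list is near the general rate. The lists were chosen with earlier results of these data known.

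The untreated cells gave a second control and a background for the dsRNA treatment itself. Mock against untreated cells, limma called 0 of 18769 probe sets with either prior, and 687 had an unadjusted p under 0.05 (1041 with the single prior), against 938 expected by chance. NELF-depleted against untreated cells, 212 were called (1.13%), 163 lower (0.868%) and 49 higher (0.261%), again 0 with the single prior. These comparisons share arrays with the main one, so their values are only set side by side. The 145 lower probe sets had a median difference of -1.09 against mock and -1.14 against untreated cells, and the 47 higher ones had medians of 0.80 and 0.76. Mock minus untreated, the same probe sets had medians of -0.022 and -0.072 and never exceeded 0.43 in either direction. QC differed by -2.45 against mock and -2.37 against untreated cells, and Sgsh by -2.0 and -1.97. For bbg the values were 2.41 and 2.46, and for the probe set of Hsp70Bc and Hsp70Bb they were 1.84 and 1.41.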

How the data were processed

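RNA of 2 untreated, 2 mock and 2 NELF-depleted samples was hybridised, each sample on its own Affymetrix Drosophila Genome 2.0 array, grouped by the sample titles. The authors deposited linear intensities, 1 for each probe set on each array and between 0.0686 and 19041.7, scanned with GeneChip Operating Software 1.2.0.037 or Command Console 1.1 and imported into Rosetta Resolver 6.0, per the labels' series design text. How the authors summarised, scaled or background-corrected these intensities is not given in the sources used here. Values were set to log2(value + 0.819), where the added amount is their 5th percentile and makes changes of dim genes look smaller. The 6 arrays were quantile normalized and the 183 control probe sets left out. Limma 3.58.1 in R 4.3.3 fitted a mean for each of the 3 groups to all 6 arrays (eBayes with an intensity-dependent prior of 8.0 degrees of freedom beside 3 residual ones, two-sided), and p-values were Benjamini-Hochberg adjusted over 18769 probe sets. The prior was chosen knowing that the single prior calls none. The script was tested on simulated data.

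Gene names come from the platform annotation, brought up to date by identifier for 11894 of 11983 genes through RefSeq (Release 6 plus ISO1 MT). The brightest probe set stood for its gene in the 26 lists. The comparison, the members and the lists were chosen with earlier results of these data known. After the files were seen 6 list spellings were corrected, 1 of them, that of PCB, after list results. Named genes are the NELF subunits; of called single-gene probe sets with arrays that do not overlap, the 25 largest falls and 20 largest rises; up to 6 several-gene and 2 unlisted probe sets in each direction; 2 single-gene probe sets by smallest p in each direction and class of level; up to 4 list members each by p; and genes with several probe sets. Others, such as CtsB, Hexo2, CtsL1, cathD, Shmt, AOX3, CG9338, Hsf, Hsp27, Hsc70-4, Spt5, spt4, CycT and lilli, were chosen after their values were seen. Hml, Pxn, ush, NimC1 and those singled out among several-gene probe sets were chosen likewise. The same replicate number does not mark a known pairing in the labels. A planned promoter motif description was not run, since no promoter sequence was used here. Alternatives were other priors, scalings, offsets, filters, fewer arrays and a replicate block.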

Additional observations from a re-analysis of the deposited data

How the results depend on the processing

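Of the 84 called probe sets named by the rule, 22 stayed called in all of 18 other settings but the single prior, NELF-B, Nelf-E, QC, Sgsh, Esyt2 and PCB among them, and 0 changed sign. With the single prior 0 probe sets were called in NELF-depleted against mock and against untreated cells and in every class of level, the differences of NELF-B (-1.94) and Nelf-E (-2.40) being the same but no longer past the threshold. In NELF-depleted against mock cells the intensities as deposited gave 69 calls (60 lower, 9 higher), array medians 78 (60 and 18), hybridization controls 3095 (3070 and 25) and an offset of 50 intensity units 82. Leaving out each array in turn gave 67 to 159 calls. Against untreated cells hybridization controls gave 2309 calls and leaving out each array 72 to 173, while mock against untreated cells had 0 in every alternative run. A single prior on probe sets above background only, chosen after seeing the data, gave 86 calls, 62 of them among the 192. Deviations of same-numbered arrays from their group means correlated at 0.0063 to 0.015 over all probe sets and at 0.125 to 0.172 over those above background, with only 2 numbers per group, and a fit with the replicate number as a block gave 382 calls against mock (263 lower, 119 higher) and 365 against untreated. Values that turned sign were all uncalled. On hybridization controls TH1 was -0.024, Atg17 -0.0037, the probe set 1631487_s_at of AMPdeam -0.48 and 1636500_at of CG32425 -0.30, and as deposited the AMPdeam probe set was -0.12. Leaving out each array in turn, 1636931_at of br ran from -0.81 to 0.56, 1637312_a_at of br from -0.46 to 0.18, 1631487_s_at of AMPdeam from -0.24 to 0.30, 1636500_at of CG32425 from -0.11 to 0.48 and Tm2 from -0.18, without NELF-depleted replicate 2, to 3.15, without NELF-depleted replicate 1. Where a result changed, the cause was not tested. Dim probe sets were read with less precision, with a median SE of 0.864 below background.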

Other observations

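Genes of detoxification were scattered among the calls, and these families were gathered by symbol after the calls were seen, so their counts are a description. Over all genes 1.07% fell and 0.25% rose, and above background 1.96% and 0.459%. Of 34 measured glutathione transferase genes, 22 above background, 4 fell and 1 rose. GstE2 read 6.56 and 6.65 on the mock and 4.69 and 5.36 on the NELF-depleted arrays, a difference of -1.59 (SE 0.289). GstO3 differed by -1.41, GstD3 by -1.08 and GstD9 by -0.62, while GstT1 rose by 0.52 (SE 0.0965). The family median above background was -0.22, against 0.012 for all genes above background. Of 83 measured cytochrome P450 genes, 31 above background, 4 fell and 0 rose. These were Cyp9c1 (-1.07), Cyp4d20 (-1.03), Cyp310a1 (-1.01) and Cyp12d1-d (-0.84), and the median above background was -0.14. Of 35 UDP-glycosyltransferase genes only 6 lay above background, and 2 of them, Ugt35A1 and Ugt317A1, fell by 1.70 and 1.31. The imaginal disc growth factor gene Idgf3 was 1 of 6 in its family called lower (-1.02), and alpha-Est9 was 1 of 8 carboxylesterase genes of the alpha-Est cluster (-0.80).

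Among genes next to each other in the annotation, 7 pairs had both members called. Of all genes 1.07% were called lower and 0.25% higher. No share over all neighbouring pairs is given here, so these counts are a description and do not show clustering. In 4 pairs both fell, which were CG11400 with Gbp1, teq with CG32032, CG5191 with CG10877, and yin with CG2930. In 1 pair, CG15211 with Ant2, both rose. In the other 2 the members went opposite ways, with luna at 0.61 beside Cyp12d1-d at -0.84, and CG34232 at -2.08 beside Oda at 0.70. The annotation lists 3 of the 7 pairs as overlapping, CG5191 with CG10877, yin with CG2930, and CG15211 with Ant2, so these may not be independent readings.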
